A study of Mus musculus with 4 samples.

Results

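Amino acid transporters of the solute carrier (Slc) families were described in stem cells of the mouse small and large intestine. They were chosen by gene symbol: every gene of the Slc1, Slc3, Slc6, Slc7, Slc36, Slc38 and Slc43 families whose symbol ends in a number, plus Slc16a10. This gave 62 of the 55487 genes in the deposited tables. The symbol rule also takes in family members that carry other substrates, such as serotonin, taurine and creatine. It leaves out Slc6a20a and Slc6a20b, whose symbols end in a letter.

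RNA came from crypt cells of mice aged 6 to 12 weeks that carry the Lgr5-EGFP-IRES-creERT2 allele, which places EGFP, a green reporter, and a tamoxifen-inducible Cre under control of Lgr5, a gene of stem cells. No treatment was given. Stem cells of the small intestine (SISC, 2 libraries) were the EGFP+/CD24- fraction of the sort. Those of the large intestine (LISC, 2 libraries) were the EGFP+ fraction, and the labels name no CD24 gate for them. Small intestine was taken near the pylorus and near the cecum, and large intestine from cecum to rectum. The labels do not say whether the replicates of a group came from separate mice or from pooled mice, so the spread that p-values rest on is that of these libraries and may be technical.

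Cells take up amino acids through membrane carriers that differ in substrate, driving ion and position in the cell. In the intestinal epithelium, carriers of the brush border bring amino acids in from the lumen, and carriers and exchangers of the basolateral membrane pass them to or from the blood. Several Slc7 proteins work only when bound to a heavy chain, Slc3a1 at the brush border or Slc3a2 at the basolateral membrane. Dividing cells also draw on exchangers of glutamine, leucine, serine and cystine, many of which are target genes of ATF4, the factor of the amino acid starvation response.

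Depth was 12795405 to 27227681 counts per library. Ribosomal RNA took 31.8% and 36.6% of the counts of SISC and LISC replicate 1 and at most 0.304% in the replicate 2 libraries. In TPM, a level per transcript length scaled to a common total, 27 of the 36 transporter genes tested were lower in replicate 1 than in replicate 2 in SISC, and 33 of 36 in LISC. Groups are therefore compared on CPM (counts scaled to a common total with TMM factors), TPM serves to compare genes within a library, and log2 ratios within each replicate number are given beside the fitted ones. Lgr5 itself was read at 114 and 173 CPM in SISC, against 147 and 89.7 CPM in LISC, and Cd24a at 341 and 407 CPM in SISC, against 328 and 503 CPM in LISC. Epithelial markers (3 of 3 tested, none called) summed to 3061 and 3092 CPM in SISC, against 2829 and 3755 CPM in LISC. Stromal and endothelial markers (1 of 6 tested, not called) summed to at most 4.95 CPM in any library.

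Of the 62 transporter genes, 11 had 0 counts in every library and another 15 had too few counts to test, with at most 25 counts over the 4 libraries. The remaining 36 passed the filter on low counts. Of these, 3, Slc6a14 and Slc43a3 among them, reached its minimum in no SISC library and passed only through LISC. A difference in these 3 was built in. The filter asks for 2 libraries above its minimum. Slc43a1 was below it in SISC replicate 2 and passed only through LISC. Slc7a9 was below it in LISC replicate 1 and passed only through SISC, where it is high. The summed TPM of the 62 genes was 288 and 382 in SISC and 254 and 406 in LISC, with the groups overlapping. Slc1a5, which exchanges glutamine and other neutral amino acids, had the highest TPM of the family in each of the 4 libraries, at 52.9 and 69.9 in SISC and 89.96 and 118 in LISC. It made up 18.4% and 18.3% of the family's summed TPM in SISC and 35.4% and 29.1% in LISC. The heavy chain Slc3a2 and the glutamine transporters Slc38a2 and Slc38a10 ranked between 2 and 5 in every library.

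**Figure D1:**
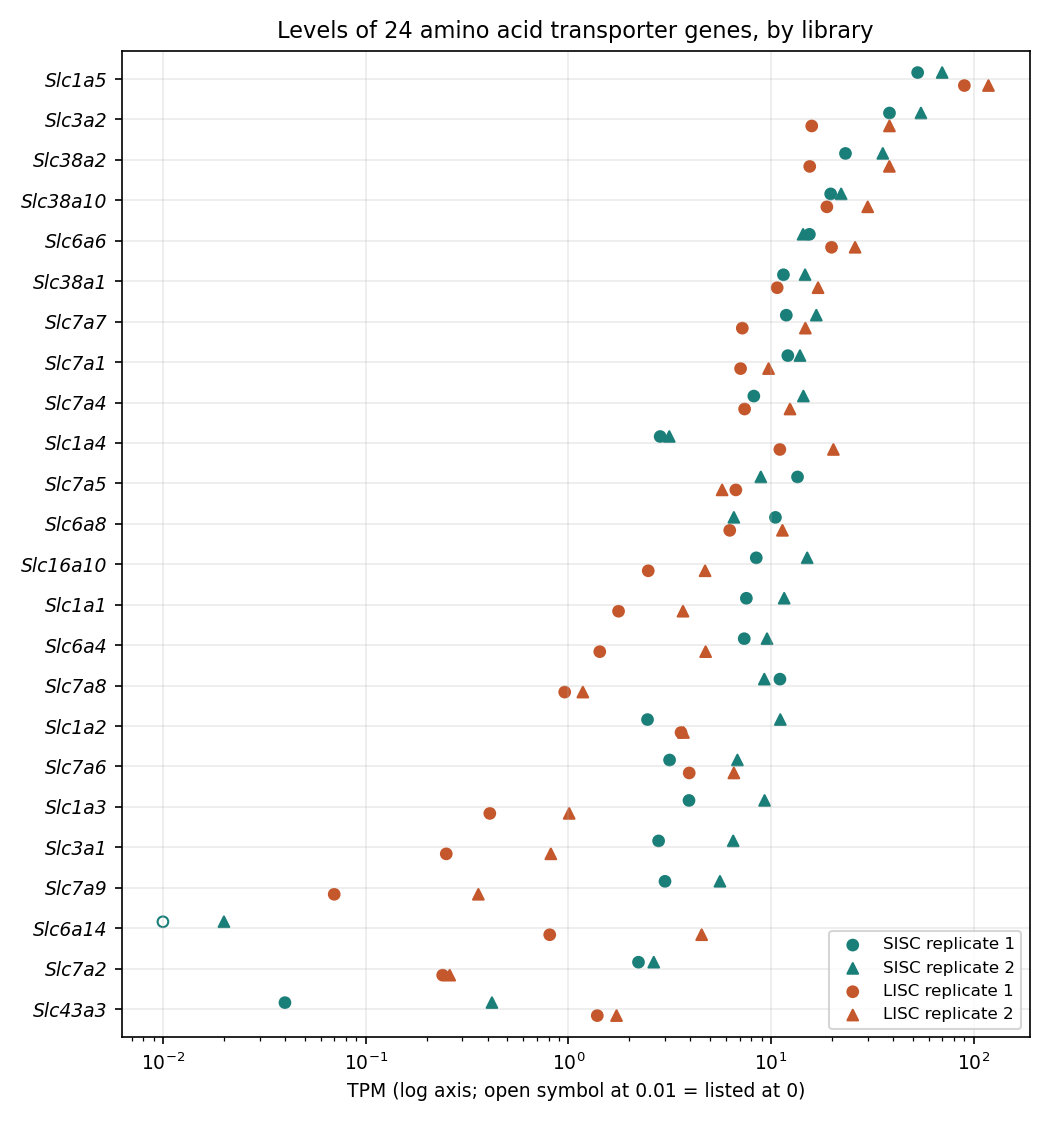
Level of 24 transporter genes described by name, in TPM on a log axis, with 1 symbol per library (teal for SISC, orange for LISC, circles for replicate 1, triangles for replicate 2). Slc1a5 is highest throughout, while Slc1a3, Slc3a1, Slc7a2, Slc7a8 and Slc7a9 lie to the right in SISC and Slc1a4, Slc6a14 and Slc43a3 to the right in LISC.

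Setting LISC against SISC asks which carriers differ between these sorted cells. Region and sort gate go together here, since the labels name a CD24 gate for SISC only, and they cannot be told apart. By edgeR's quasi-likelihood test, fitted on all 14165 genes that passed the filter, 8 of 36 transporter genes were called at an adjusted p below 0.05, or 22.2%, where 2.2% of all genes tested were called. The 5 called higher in SISC were the glutamate transporters Slc1a1 and Slc1a3, the cationic amino acid carriers Slc7a2 and Slc7a9 and the aromatic amino acid carrier Slc16a10 (13.9%, beside 0.741% of all genes). Slc1a4, Slc6a14 and Slc43a3 were called higher in LISC (8.33%, beside 1.45% of all genes). Slc6a14 and Slc43a3 passed the filter only through LISC, so their difference was built in, and both are counted in the 8.33% and the 22.2%. Slc7a9 passed it only through SISC, so its difference was built in in part, and it is counted in the 13.9% and the 22.2%. The median log2 difference of LISC over SISC was −0.04 over the 36 genes and −0.02 over all genes tested, with 18 of the 36 above and 18 below 0. Within replicates 1 and 2 the median over the 36 was −0.02 and −0.01. Leaving out SISC replicate 1 gave 3 genes called higher in LISC and 6 in SISC, where 3.18% of all genes were called. Without SISC replicate 2 these counts were 0 and 3 (2.18% of all genes), without LISC replicate 1 they were 2 and 3 (2.36%), and without LISC replicate 2 they were 1 and 1 (1.69%). With DESeq2 4 were higher in LISC and 8 in SISC, where it called 8.35% of all genes (5.54% and 2.81%).

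**Figure D2:**
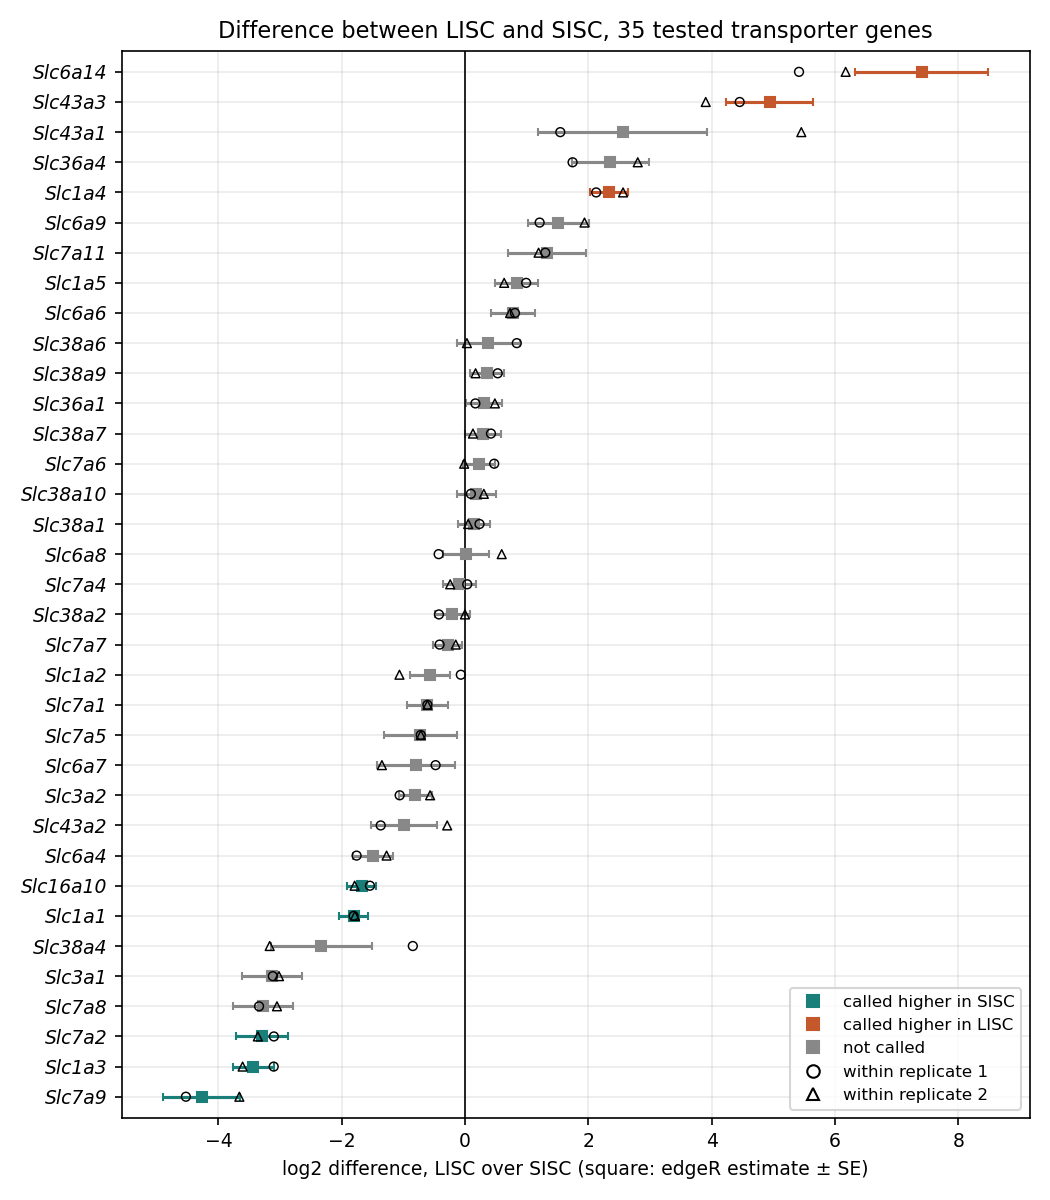
Log2 difference of LISC over SISC for 35 of the 36 transporter genes tested, as edgeR's estimate with its standard error (squares, coloured where called) and as the ratio between single libraries within replicate 1 (circles) and replicate 2 (triangles). The 5 genes called higher in SISC lie between −4.27 and −1.67, and the 3 called higher in LISC between 2.33 and 7.40.

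Among carriers of the brush border, a pair takes up cystine and cationic amino acids, and of this pair Slc7a9 was called higher in SISC and Slc3a1 was not called. Slc7a9 (ENSMUSG00000030492; chromosome 7, 35448796 to 35466036, GRCm38), the light chain of this pair, was read at 6.48 and 6.81 CPM in SISC, against 0.185 and 0.447 CPM in LISC. Both SISC libraries lay well above both LISC libraries, a log2 difference of −4.27 ± 0.63 (SE; 19.3-fold; edgeR adjusted p = 0.0494). In replicates 1 and 2 taken singly it was −4.53 and −3.66. The LISC level of Slc7a9 rests on 2 and 13 counts and carries much counting error. With 2 counts in LISC replicate 1, Slc7a9 passed the filter only through SISC, the group where it is high. Its heavy chain Slc3a1 (chromosome 17, 85028376 to 85064236) had 8.004 and 11.6 CPM in SISC, against 0.834 and 1.34 CPM in LISC, again without overlap. The log2 difference of Slc3a1 was −3.13 ± 0.49 and just missed the threshold (edgeR adjusted p = 0.0564). Without SISC replicate 1, Slc3a1 was called (log2 −3.38). The call of Slc7a9 was lost without SISC replicate 2 (log2 −4.27), without LISC replicate 1 (−3.88) and without LISC replicate 2 (−5.10). Slc3a1 overlaps the gene Prepl on the opposite strand over 767 bases, and how strand was handled in the counting is not stated in the sources used here.

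Of 3 glutamate carriers tested, Slc1a1 and Slc1a3 were called higher in SISC. Slc1a1 (ENSMUSG00000024935; chromosome 19, 28835049 to 28913960), which takes up glutamate, aspartate and cysteine at the brush border, was read at 35.6 and 35.3 CPM in SISC, against 10.1 and 10.2 CPM in LISC. Replicates were close to each other and the groups lay far apart, a log2 difference of −1.81 ± 0.23 (3.50-fold; edgeR adjusted p = 0.0403). Its call was lost without SISC replicate 2 (log2 −1.83), LISC replicate 1 (−1.80) or LISC replicate 2 (−1.80), where the estimate hardly moved. Slc1a3 (ENSMUSG00000005360; chromosome 15, 8634124 to 8710764), known as a glutamate transporter of glial cells, was read at 19.9 and 29.2 CPM in SISC, against 2.22 and 2.30 CPM in LISC. Its log2 difference was −3.43 ± 0.33 (10.8-fold; edgeR adjusted p = 0.0227). Within replicates 1 and 2 it was −3.10 and −3.61. Slc1a3 was the 1 transporter gene of the 8 that kept its call under all 10 alternatives run. Slc1a2, another glial glutamate transporter, had 13.6 and 18.2 CPM in SISC, against 12.97 and 8.66 CPM in LISC and was not called (log2 −0.57 ± 0.33; edgeR adjusted p = 0.643). Slc1a6 and Slc1a7, of neurons and retina, had 1 and 0 counts in all.

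Of the neutral amino acid members of the Slc1 family, Slc1a4 was called higher in LISC and Slc1a5 was not called. Slc1a4 (ENSMUSG00000020142; chromosome 11, 20302180 to 20332713), an exchanger of serine, alanine and cysteine, was read at 15.0 and 10.03 CPM in SISC, against 65.8 and 59.7 CPM in LISC. The LISC libraries were higher without overlap, a log2 difference of 2.33 ± 0.30 (5.03-fold; edgeR adjusted p = 0.0403). In replicates 1 and 2 taken singly it was 2.13 and 2.56. Slc1a4 was no longer called without SISC replicate 2 (log2 2.04). In TPM, Slc1a4 ranked 20 and 22 among the 62 genes in the SISC libraries and 6 in both LISC libraries. Slc1a5 had 169 and 144 CPM in SISC, against 336 and 224 CPM in LISC, higher in LISC without overlap but not past the threshold (log2 0.84 ± 0.35; edgeR adjusted p = 0.423).

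A carrier with a broad range of neutral and cationic substrates, Slc6a14 (ENSMUSG00000031089; chromosome X, 21714896 to 21742355), had 0 and 2 counts in the SISC libraries and 45 and 338 counts in the LISC libraries. This corresponds to 4.17 and 11.6 CPM in LISC, and the ratio of pooled counts was 219.7-fold with an exact 95% interval of 60.4 to 1821 that covers counting error only (edgeR adjusted p = 0.0494). The call was lost without SISC replicate 2, where the SISC count is 0, and without LISC replicate 2 (log2 6.51). Slc6a19, the main neutral amino acid carrier of the mature villus brush border, had 11 and 9 counts in SISC and 3 and 2 counts in LISC and was not tested. Slc6a18, its relative of kidney, had 0 counts in all libraries. Slc36a1, a proton-coupled carrier of small amino acids, had 16.2 and 11.2 CPM in SISC, against 18.2 and 15.6 CPM in LISC, with the groups overlapping.

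Of the cationic amino acid carriers that work without a heavy chain, Slc7a2 was called higher in SISC and Slc7a1 was not called. Slc7a2 (ENSMUSG00000031596; chromosome 8, 40862396 to 40922308), which carries arginine and lysine, was read at 23.8 and 16.8 CPM in SISC, against 2.69 and 1.55 CPM in LISC. The SISC libraries were higher without overlap, a log2 difference of −3.29 ± 0.42 (9.79-fold; edgeR adjusted p = 0.0403). In replicates 1 and 2 taken singly it was −3.10 and −3.36. Without LISC replicate 2 the call was lost (log2 −2.90). Slc7a1, the carrier of arginine in most dividing cells, was read at 114 and 80.8 CPM in SISC, against 74.8 and 53.0 CPM in LISC and was not called (log2 −0.61 ± 0.33; edgeR adjusted p = 0.607). In TPM, Slc7a1 stood above Slc7a2 in every library, at 12.1 and 13.9 against 2.22 and 2.64 in SISC and 7.08 and 9.73 against 0.24 and 0.26 in LISC. Slc7a4, a relative with no settled substrate, had 23.5 and 21.3 CPM in SISC, against 24.1 and 18.05 CPM in LISC, with the groups overlapping.

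On the basolateral side, the heavy chain Slc3a2 was read at 80.5 and 72.6 CPM in SISC, against 38.5 and 49.0 CPM in LISC, higher in SISC without overlap but not called (log2 −0.80 ± 0.27; edgeR adjusted p = 0.280). Its light chains were divided. Slc7a8 (ENSMUSG00000022180; chromosome 14, 54722209 to 54781946), an exchanger of neutral amino acids, had 61.0 and 30.6 CPM in SISC, against 5.93 and 3.61 CPM in LISC. The log2 difference of Slc7a8 was −3.28 ± 0.49 and missed the threshold by little (edgeR adjusted p = 0.0506). It was called without SISC replicate 1 (log2 −2.71), without SISC replicate 2 (−3.71) and without LISC replicate 1 (−3.66), and by DESeq2 (adjusted p = 1.23e-07). Slc7a7, the exchanger of cationic for neutral amino acids that is lost in lysinuric protein intolerance, had 26.9 and 23.7 CPM in SISC, against 20.2 and 21.4 CPM in LISC (log2 −0.28 ± 0.23; edgeR adjusted p = 0.819). The groups overlapped for its relative Slc7a6, and for Slc7a5, the leucine carrier of dividing cells, which was read at 58.4 and 24.7 CPM in SISC, against 35.5 and 15.0 CPM in LISC. The log2 difference of Slc7a5 was −0.72 in each replicate number taken singly, and its locus is overlapped over 26545 bases by the gene model Gm20388 on the opposite strand. Slc7a11, which brings in cystine in exchange for glutamate, was low in all libraries, at most 0.50 TPM, and Slc7a10 had 0 counts.

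The 6 light chains known to bind Slc3a2 summed to 39.7 and 41.9 TPM in SISC and 19.0 and 28.8 TPM in LISC, beside 38.4 and 54.9 TPM of Slc3a2 in SISC and 15.9 and 38.4 TPM in LISC. Their ratio to Slc3a2 in TPM was 1.03 and 0.763 in SISC and 1.19 and 0.749 in LISC, with the groups overlapping. The makeup of the light chains differed in part. Slc7a8 made up 27.9% and 22.1% of their TPM in SISC and 5.06% and 4.10% in LISC. Slc7a6 made up 7.96% and 16.3% in SISC and 20.8% and 22.8% in LISC. The share of Slc7a7 overlapped between the groups, at 29.96% and 39.9% in SISC and 38.1% and 51.4% in LISC, and so did that of Slc7a5. The ratio of Slc7a9 to its heavy chain Slc3a1 was 1.08 and 0.860 in SISC, and 0.280 and 0.439 in LISC, where Slc7a9 had 2 and 13 counts and Slc3a1 had 9 and 39. These ratios are descriptions with no test.

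**Figure D3:**
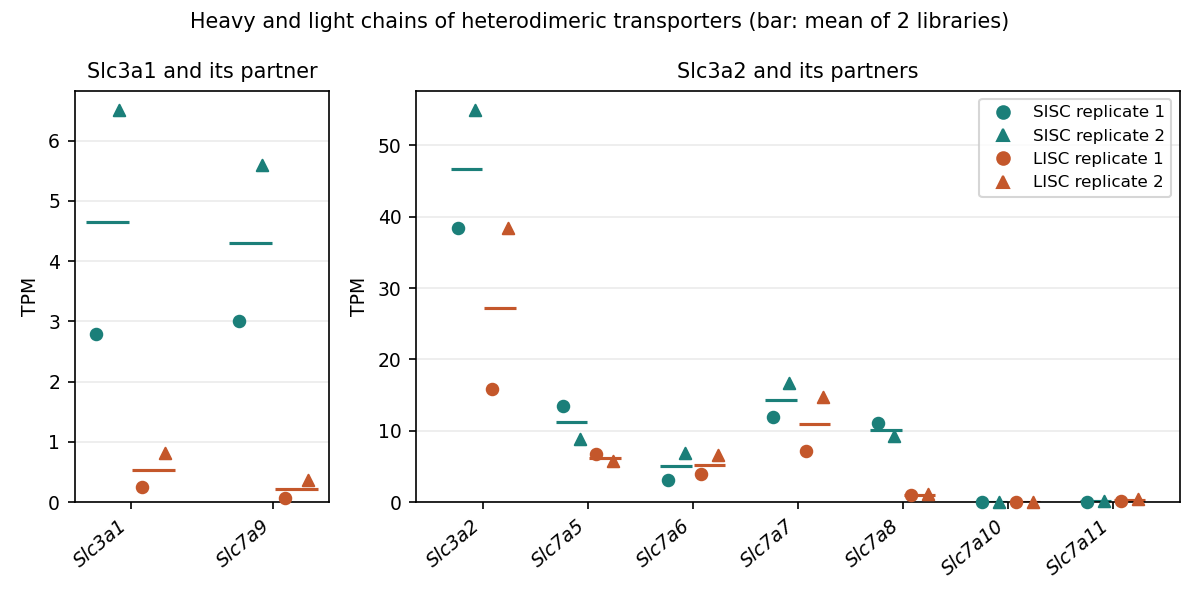
TPM on linear axes of the heavy chain Slc3a1 with its light chain Slc7a9 (left) and of the heavy chain Slc3a2 with 6 light chains (right), with 1 symbol per library and a bar at the mean of 2 libraries. Slc3a1, Slc7a9 and Slc7a8 are near 0 in LISC, while Slc7a5, Slc7a6 and Slc7a7 are present in both groups.

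Uniporters let amino acids leave the cell down their gradient. Slc16a10 (ENSMUSG00000019838; chromosome 10, 40033532 to 40142258), the basolateral carrier of tyrosine, phenylalanine and tryptophan, was read at 55.2 and 61.0 CPM in SISC, against 18.9 and 17.6 CPM in LISC. The SISC libraries were higher without overlap, a log2 difference of −1.67 ± 0.24 (3.19-fold; edgeR adjusted p = 0.0455). Its call was lost without SISC replicate 1 (log2 −1.75), SISC replicate 2 (−1.62), LISC replicate 1 (−1.73) or LISC replicate 2 (−1.61). In the Slc43 family, Slc43a3 (ENSMUSG00000027074; chromosome 2, 84936579 to 84958509), now known as a carrier of purine bases more than of amino acids, had 2 and 4 counts in SISC and 57 and 95 counts in LISC. Its log2 difference was 4.94 ± 0.70 (edgeR adjusted p = 0.0469). It was no longer called without SISC replicate 1 (log2 5.02), SISC replicate 2 (4.79), LISC replicate 1 (4.56) or LISC replicate 2 (5.25). Slc43a1, a leucine uniporter, had 2.98 and 0.0937 CPM in SISC, against 8.90 and 8.39 CPM in LISC, and was not called (edgeR adjusted p = 0.594). Slc43a2, a related uniporter, had 15.9 and 6.15 CPM in SISC, against 6.12 and 5.02 CPM in LISC (edgeR adjusted p = 0.602).

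None of the Slc38 family, sodium-coupled carriers of glutamine and other neutral amino acids, was called by edgeR among 7 tested, and 1, Slc38a4, had an unadjusted p under 0.05. Slc38a2 was read at 152 and 139 CPM in SISC, against 113 and 139 CPM in LISC (log2 −0.21 ± 0.29; edgeR adjusted p = 0.954). Slc38a1 had 82.7 and 79.9 CPM in SISC, against 97.3 and 82.8 CPM in LISC, and Slc38a10 104 and 71.4 CPM in SISC, against 111 and 88.2 CPM in LISC. These values of the glutamine carriers lay within 1 SE of no difference. Slc38a4 had 1.75 and 5.12 CPM in SISC, against 0.927 and 0.481 CPM in LISC. Slc38a9, the lysosomal arginine sensor of the growth kinase mTORC1, had 8.44 and 8.96 CPM in SISC, against 12.2 and 10.1 CPM in LISC (edgeR adjusted p = 0.809).

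No Slc6 member described here with another substrate was called by edgeR. Slc6a4, the serotonin transporter, was read at 16.2 and 17.7 CPM in SISC, against 4.73 and 7.29 CPM in LISC, higher in SISC without overlap but not called (log2 −1.49 ± 0.33; edgeR adjusted p = 0.119; DESeq2 adjusted p = 0.0101). Slc6a6, the taurine carrier, had 96.9 and 69.1 CPM in SISC, against 170 and 115 CPM in LISC (log2 0.78 ± 0.35; edgeR adjusted p = 0.476). The creatine carrier Slc6a8 overlapped between groups at 31.1 and 16.1 CPM in SISC, against 23.1 and 24.3 CPM in LISC. The glycine carrier Slc6a9 was read at 6.11 and 2.72 CPM in SISC, against 14.3 and 10.7 CPM in LISC (edgeR adjusted p = 0.272). Slc6a12, a betaine and GABA carrier, had 0 counts in SISC and 5 and 16 in LISC, at least 3.25-fold higher in LISC against a floor of 3 counts per library, and was too low to test.

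For the counts of called members that follow, the share over all genes tested was 2.2% by edgeR. Grouped by their place in the cell, 3 of 7 tested brush border members were called, Slc7a9 and Slc1a1 higher in SISC and Slc6a14 higher in LISC. Of these 3, Slc6a14 passed the filter only through LISC and Slc7a9 only through SISC. The median log2 difference of the 7 members was 0.31 (0.17 and 0.48 within replicates 1 and 2). That median was below 0 without SISC replicate 2 (−0.90), LISC replicate 1 (−0.80) or LISC replicate 2 (−0.24), and with no filter on low counts (−0.71). In each of these settings Slc6a19 was tested as well, which made 8 members. In every alternative with the same 7 members the median stayed above 0. Of 10 tested basolateral members, Slc16a10 was called higher in SISC, and the median was −0.67 (−0.66 and −0.43 within replicates, −0.18 without SISC replicate 1 and −0.36 without LISC replicate 2). Of 9 tested members known as ATF4 targets or growth-linked carriers, Slc1a4 was called higher in LISC, and the median was 0.15. Leaving out SISC replicate 2 or LISC replicate 2 brought the brush border count to 0, and leaving out LISC replicate 1 to 1. The basolateral count became 2 on leaving out SISC replicate 1 and 0 on leaving out LISC replicate 2. Without SISC replicate 2 the count of growth-linked members was 0.

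Genes that work beside these carriers were described from further lists. Their counts of called genes stand beside 2.2% of all genes tested, called by edgeR. Among 15 tested carriers of amino acids and peptides outside the symbol rule and their partner proteins, Slc25a15, the mitochondrial ornithine carrier, was called higher in SISC, at 91.5 and 97.7 CPM against 29.9 and 28.2 CPM (3.26-fold; edgeR adjusted p = 0.0494). Its call was lost when any single library was left out (log2 −1.76 to −1.65). The peptide carrier Slc15a1, typical of mature enterocytes, had 16 and 10 counts in SISC and 2 and 7 in LISC. The proline carrier Slc6a20a had 2.26 and 1.66 CPM in SISC, against 0.834 and 1.27 CPM in LISC. Cltrn, which escorts Slc6a19 to the membrane, had 3 and 16 counts in SISC and 0 in LISC. Slc15a1, Slc6a20a and Cltrn were chosen after their values were seen. Without SISC replicate 2, LISC replicate 1 or LISC replicate 2, 0 genes of the list were called. The median log2 difference of this list was 0.11, with 8 of the 15 tested genes above 0 and 7 below.

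Of 12 tested brush border peptidases, which split peptides into the substrates of the carriers, Mme (neprilysin) was called higher in SISC. Among all genes tested, 2.2% were called. Mme had 18.8 and 32.4 CPM in SISC and 4 and 2 counts in the LISC libraries (log2 −7.21 ± 0.77; edgeR adjusted p = 0.0269). It passed the filter on low counts only through SISC, so this difference was built in. The list's median was −0.84, with 9 of 12 genes below 0, and −1.64 and −0.57 within replicates 1 and 2. Without LISC replicate 1, 2 peptidases were called.

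None of 21 tested genes of the ATF4 response was called by edgeR, with 6 at an unadjusted p under 0.05 and 5 called by DESeq2. Among all genes tested, edgeR called 2.2% and DESeq2 8.35%. The median log2 difference of the 21 response genes was −0.39, and −0.64 and −0.34 within replicates 1 and 2. Of these 21, 14 were below 0 and 7 above. Asparagine synthetase (Asns) had 56.0 and 61.3 CPM in SISC, against 25.8 and 24.6 CPM in LISC (edgeR adjusted p = 0.0891), and Atf4 234 and 223 CPM in SISC, against 118 and 158 CPM in LISC (edgeR adjusted p = 0.437). Both were chosen after their values were seen. Without SISC replicate 2, 1 of the response genes was called.

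Of 38 tested genes of amino acid metabolism, 4 were called, where 2.2% of all genes tested were called. Cps1, which starts the urea cycle and citrulline synthesis in mitochondria, was read at 2939 and 2350 CPM in SISC, against 275 and 201 CPM in LISC (11.1-fold; edgeR adjusted p = 0.0447). The creatine kinase gene Ckb was 5.22-fold higher in SISC (edgeR adjusted p = 0.0431). Cbs, which joins homocysteine and serine on the way to cysteine, was read at 12.2 and 13.2 CPM in SISC, against 213 and 198 CPM in LISC (16.2-fold; edgeR adjusted p = 0.0168). Aldh4a1, of proline breakdown, was 28.2-fold higher in the large intestine (edgeR adjusted p = 0.0167). The list's median was −0.02, with 19 genes on each side of 0. Without LISC replicate 1 or LISC replicate 2, 2 were called: Cps1 (log2 −3.71 and −3.25) and Ckb (−2.25 and −2.52) lost their calls, and the call of Ckb was also lost without SISC replicate 2 (−2.13).

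**Figure D4:**
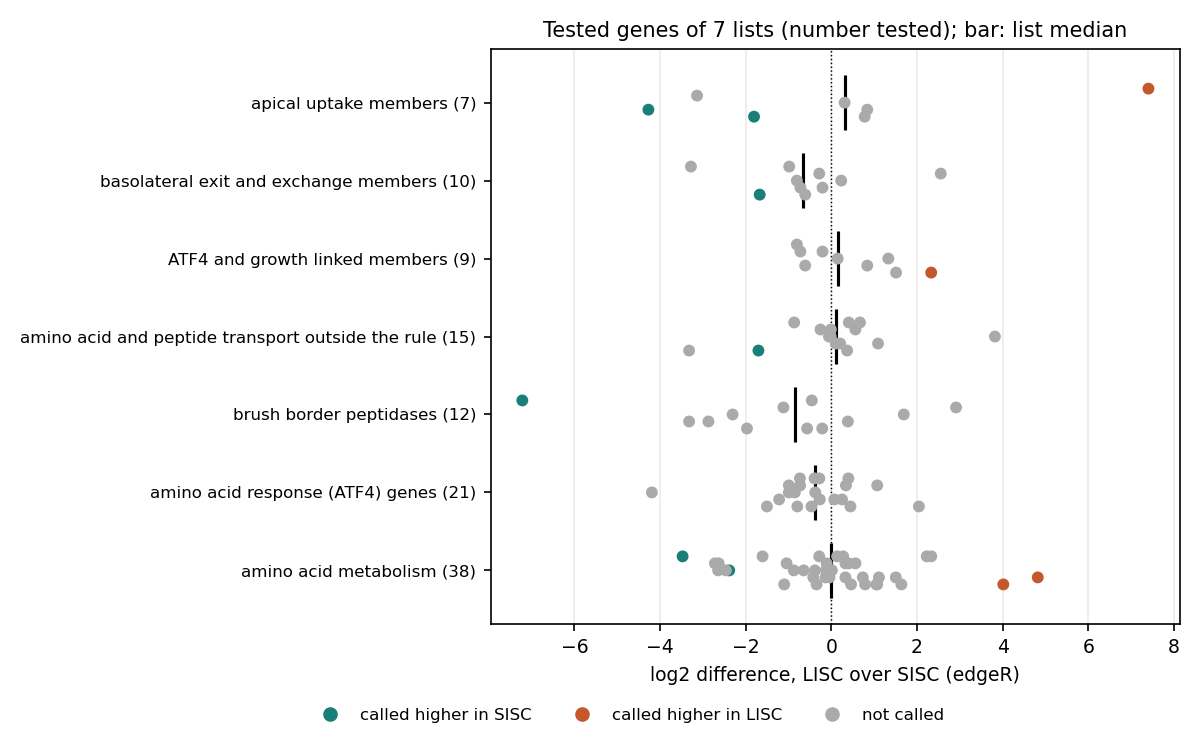
Log2 difference of LISC over SISC for the tested genes of 7 lists, with 1 point per gene, coloured where called, and a bar at each list's median. The brush border peptidases have the lowest median (−0.84), and among the transporter lists only the brush border members hold called genes on both sides of 0. The called brush border member above 0 is Slc6a14, which passed the filter only through LISC.

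Markers of other cell types were read in the same libraries. The summed level of 7 Paneth cell markers was 8731 and 1343 CPM in SISC, against 54.2 and 26.9 CPM in LISC (7 of 7 tested, none called by edgeR, none at 0 in either group). The 8 enterocyte markers summed to 129 and 157 CPM in SISC, against 59.4 and 156 CPM in LISC, with Apoa4 and Sis called higher in SISC and Apoa4 at 0 in LISC. Most of the LISC sum was Fabp2, at 51.2 and 131 CPM, against 42.9 and 90.1 CPM in SISC. Fabp2 and Krt20 overlapped between the groups, while Alpi, Fabp1, Apoa1, Apoa4, Sis and Lct were higher in SISC without overlap. Goblet and deep crypt secretory markers (7 of 7 tested, none called) summed to 1934 and 339 CPM in SISC, against 3697 and 6976 CPM in LISC. The 6 colonocyte markers (5 tested) summed to 26.1 and 26.4 CPM in SISC, against 278 and 1177 CPM in LISC, with Car4 called higher in LISC and Car1, Aqp8 and Saa1 at 0 in SISC. Stem cell markers (7 of 7 tested, Olfm4 called higher in SISC) summed to 8970 and 13920 CPM in SISC, against 1012 and 746 CPM in LISC. Most of that sum was Olfm4: the other 6 stem cell markers summed to 1205 and 1448 CPM in SISC, against 920.4 and 638 CPM in LISC, and Lgr5, Ascl2 and Lrig1 overlapped between the groups. Enteroendocrine markers (8 of 8 tested, Gip called higher in SISC and at 0 in LISC) summed to 172 and 34.9 CPM in SISC, against 51.9 and 50.7 CPM in LISC. Immune markers (3 of 6 tested, Cd74 called higher in SISC, Lyz2 at 0 in LISC) summed to 490 and 624 CPM in SISC, against 86.5 and 106 CPM in LISC. Most of that sum was Cd74, a chaperone of antigen presentation: the other 5 summed to 6.62 and 4.87 CPM in SISC, against 5.37 and 8.04 CPM in LISC. Ptprc, carried by immune cells of all kinds, had 0.364 and 0.469 CPM in SISC, against 1.30 and 4.78 CPM in LISC (edgeR adjusted p = 0.235). Tuft cell markers (4 of 4 tested, none called) summed to 18.8 and 4.12 CPM in SISC, against 68.1 and 107 CPM in LISC. In bulk samples fewer cells of a type and less RNA per cell cannot be told apart, and the part of these cells in the differences of the carriers was not tested. The Paneth sum was lower in SISC replicate 2 than in SISC replicate 1. Slc7a2 and Slc7a8 were lower in SISC replicate 2 as well, at 16.8 and 30.6 CPM, against 23.8 and 61.0 CPM in SISC replicate 1. Slc1a1, Slc7a9, Slc3a1, Slc1a3 and Slc16a10 had 35.3, 6.81, 11.6, 29.2 and 61.0 CPM in SISC replicate 2. In SISC replicate 1 these 5 had 35.6, 6.48, 8.004, 19.9 and 55.2 CPM. How the carriers go with the Paneth sum was not tested. Slc6a14 and Slc43a3 differed between the LISC libraries in opposite directions, at 4.17 and 11.6 CPM and at 5.28 and 3.27 CPM in replicates 1 and 2.

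The DNA before the start sites was searched for letters that resemble the binding sites of intestinal factors, in the 250 bases upstream of a RefSeq start (GRCm38.p6). Of the 12 transporter genes that were called or had an unadjusted p under 0.01, 9 had such a window. The letters searched, on both strands and with overlaps allowed, were AGATAA for GATA factors, TTTATNG for CDX factors, CAAAGTNCA for HNF4, the HNF1 motif, ATCAAAG for TCF/LEF factors and TGATGNAA for ATF4. They occur in 9.99%, 9.81%, 1.19%, 0.371%, 3.21% and 3.45% of all 32851 windows. The window of Slc3a1 held 3 matches, to GATA, CDX and HNF4, and that of Slc7a9, which reaches into an annotated exon and is not printed, held 2 matches to GATA. In the other 7 windows, those of Slc1a3 and Slc1a4 among them, none of these letters was found. A match is no more than a run of letters, and no match says nothing of the factor. The windows of Slc3a1 (higher in SISC), Slc1a3 (called higher in SISC) and Slc1a4 (called higher in LISC) are shown 5′ to 3′ along each gene's own strand to set a window with matches beside 2 without, with matches in capitals.
Slc3a1, chr17:85028097-85028346, plus strand: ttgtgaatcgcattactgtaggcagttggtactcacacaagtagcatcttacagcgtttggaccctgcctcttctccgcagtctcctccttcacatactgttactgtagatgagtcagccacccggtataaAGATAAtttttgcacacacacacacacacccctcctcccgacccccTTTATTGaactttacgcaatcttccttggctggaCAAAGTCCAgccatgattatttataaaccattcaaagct
Slc1a3, chr15:8710808-8711057, minus strand: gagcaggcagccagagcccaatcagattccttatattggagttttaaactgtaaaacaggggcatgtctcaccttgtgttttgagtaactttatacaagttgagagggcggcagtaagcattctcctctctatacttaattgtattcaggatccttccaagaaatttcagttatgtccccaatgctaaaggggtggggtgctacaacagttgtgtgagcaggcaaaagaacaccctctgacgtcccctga
Slc1a4, chr11:20332714-20332963, minus strand: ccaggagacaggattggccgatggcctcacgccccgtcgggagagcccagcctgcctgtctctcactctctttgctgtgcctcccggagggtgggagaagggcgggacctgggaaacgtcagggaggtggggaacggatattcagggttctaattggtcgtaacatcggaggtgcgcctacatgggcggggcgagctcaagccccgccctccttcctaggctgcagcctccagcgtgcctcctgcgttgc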

How the data were processed

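The 4 libraries hold polyadenylated RNA from a directional library kit, per the labels' protocols. The submitters' processing notes name STAR 2.7.2b, RSEM 1.2.31 and GRCm38 (mm10). Annotation release and strand setting: not given in the sources used here. RSEM expected counts and TPM are the values the authors deposited. RSEM's own count SD for reads shared between genes was at most 0.61 for any transporter gene. Of 55487 gene identifiers, 55227 had a symbol in GENCODE vM21, which also gave the coordinates.

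Rounded expected counts were fitted with edgeR 4.0.16 in R 4.3.3, by the quasi-likelihood test with group as the only term and TMM scaling. Genes passed filterByExpr at a minimum count of 10, p-values were adjusted by Benjamini-Hochberg across 14165 genes, and 0.05 was the threshold. The SE of a log2 difference was approximated as its size over the square root of F. Ratios within a replicate number used CPM + 0.1. Alternatives used DESeq2 1.42.0, limma 3.58.1 on log2(TPM + 1), other filters, size factors, a replicate block and each library left out, in which case the lone library of a group is assumed to vary like the others. The fit was tested on data simulated with a spread common to all genes. It recovered 0% of 2-fold, 21.7% of 4-fold, 64.4% of 8-fold and 96% of 16-fold changes. A gene that was not called may therefore still differ by several fold.

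Each transporter gene that was called, had a mean TPM of at least 5 in a group or an unadjusted p under 0.01 was to be named (25 genes, of which 1 is not reported here), and up to 4 called genes per other list at 1 TPM or more. Any other gene given with values was picked with its values in view. The members and lists were chosen with earlier results of these data known. On the TMM scale, a floor of 3 counts corresponds to 0.0937 to 0.278 CPM by library, for counting error only.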

Additional observations from a re-analysis of the deposited data

How the results depend on the processing

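Of the 8 called transporter genes, Slc1a3 kept its call under all 10 alternatives, and no called gene changed sign under any. Of 17 named genes not called, 7 gained a call under some alternative and 4 (Slc6a8, Slc7a4, Slc7a5 and Slc38a10) changed sign under some. Size factors of DESeq2 in the edgeR fit ended the calls of Slc6a14, Slc7a9, Slc43a3 and Slc25a15, and limma on TPM ended those of Slc1a1, Slc1a4, Slc16a10, Slc43a3, Slc25a15, Cps1 and Ckb. The cause was not tested.

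Transporter genes called higher in LISC and in SISC numbered 4 and 8 with DESeq2 (8.35% of all genes tested were called), 1 and 4 with DESeq2's size factors (1.93%), 5 and 8 of 51 with no filter on low counts (5.86%), 3 and 6 with the stricter filter (2.57%) and 2 and 5 with limma on TPM (3.71%), beside 3 and 5 in the fit reported (2.2%). Their median log2 difference was −0.069 with DESeq2 and −0.069 with its size factors, −0.10 with no filter, −0.084 with the stricter filter and −0.049 with limma on TPM. Leaving out 1 library gave 0 to 3 higher in LISC, 1 to 6 higher in SISC and a median of −0.24 to 0.017.

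Labels do not say that a replicate number marks shared mice or a shared day. With the replicate block, 7 and 10 transporter genes were called, where 10.9% of all genes were called (1539, against 311 without it), and the median was −0.0051. Genes named as not called that passed under the block were Slc1a5 (adjusted p = 0.0437), Slc3a2 (0.0461), Slc6a6 (0.0295), Slc7a5 (0.0407), Slc3a1, Slc6a4 and Slc7a8. In the lists, the block called 6 brush border, 4 basolateral and 5 growth-linked members, 3 genes of transport outside the symbol rule, 4 peptidases, 6 response genes and 18 of metabolism. Deviations from the group means in same-numbered libraries correlated at 0.648 across genes.

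Calls in the lists were 1 brush border member and 0 in transport outside the rule with DESeq2's size factors; 2 basolateral members, 3 in transport outside the rule, 5 peptidases, 5 response and 15 metabolism genes with DESeq2; 3 basolateral, 2 growth-linked, 3 outside the rule, 6 peptidases, 5 response and 12 metabolism genes with no filter; 2 basolateral with the stricter filter; and 2 basolateral, 0 growth-linked, 1 response and 2 metabolism genes with limma on TPM. Medians with no filter were −0.71 for brush border and −0.038 for growth-linked members, −0.023 outside the rule and 0.060 for metabolism, and with limma on TPM −0.50 for basolateral members, 0.037 outside the rule and −0.12 for metabolism. The brush border median with no filter was over 8 members, Slc6a19 added, beside 7 in the fit reported. Without 1 library, counts and medians ranged from 0 to 4 and −0.90 to 0.59 (brush border), 0 to 2 and −0.88 to −0.18 (basolateral), 0 to 1 and 0.03 to 0.27 (growth-linked), 0 to 1 and −0.13 to 0.29 (outside the rule), 1 to 2 and −1.50 to −0.53 (peptidases), 0 to 1 and −0.60 to −0.32 (response) and 2 to 4 and −0.11 to 0.23 (metabolism).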

Other observations

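RSEM's gene length, the abundance-weighted length of a gene's transcripts, gives a further view of these genes. It was the same to within 1.05 times over the 4 libraries for Slc1a5, Slc3a2, Slc7a8 and Slc38a2. For Slc1a2 it was 4093 and 2100 bases in SISC and 2472 and 3161 bases in LISC. The TPM of Slc1a2 differed more between the SISC replicates (2.46 and 11.1) than its CPM (13.6 and 18.2). TPM of most transporter genes was lower in replicate 1, and the part of length in this gap was not tested. Slc43a3 had a length of 2602 and 529 bases in SISC, at 2 and 4 counts, and 2586 bases in both LISC libraries. For Slc1a3 the length was 3752 and 3872 bases in SISC and 3568 and 3098 bases in LISC, without overlap. These values were not tested.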
